A study of Mus musculus with 30 samples.

Results

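Glycogen metabolism genes were followed in the extensor digitorum longus (EDL), a fast muscle of the mouse hind limb. The genes were the rows of the deposited expression table whose symbol was PYGM, PHKA1, PHKG1, GYS1, Gyg, GBE1, UGP2, PPP1R3A or PPP1R3C, and all 9 were found among the 21073 genes of the table. Muscle was taken from 30 female wild-type SJL/J mice, 5 in each of 6 groups. Unimmunized mice (Ctrl) received nothing, OVA-immunized mice received ovalbumin emulsified in complete Freund's adjuvant (CFA), and EAE-induced mice received [Ser140]-PLP139-151, a peptide of the myelin proteolipid protein, in the same adjuvant. Each treatment was sampled 14 days after induction, at the peak of disease, and 40 days after it, in the second remission of this relapsing and remitting model of multiple sclerosis, which was induced without pertussis toxin. The OVA-immunized mice share the adjuvant with the EAE-induced mice, whereas the unimmunized mice were given neither antigen nor adjuvant. The ages of the mice were not given in the sources used here.

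Glycogen is the branched glucose store that skeletal muscle uses during contraction. PYGM, the muscle glycogen phosphorylase, releases glucose units from it, and is switched on by phosphorylase kinase, which is built of regulatory alpha subunits (PHKA1 in muscle), beta subunits and catalytic gamma subunits (PHKG1 in muscle), among others. For storage, UGP2 makes UDP-glucose, Gyg (glycogenin) primes the particle, GYS1 (muscle glycogen synthase) lengthens the chains and GBE1 puts in the branches. PPP1R3A and PPP1R3C bring protein phosphatase 1 to the glycogen particle, where it removes phosphate from synthase, phosphorylase and phosphorylase kinase. Fast muscles such as the EDL are known for their high glycogenolytic capacity, and inherited loss of PYGM, the cause of McArdle disease, leads to exercise intolerance.

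RNA levels are given as RPKM, the reads on the exons of a gene scaled by exon length and by the reads of the library, and about 18.22 to 31.82 M reads a mouse were estimated from the values. The muscle identity held in every group, since the summed RPKM of 8 skeletal muscle markers was 33100 to 42110 in all mice. The day 14 Ctrl mouse 1 had the lowest level of its group in 7 of the 9 genes, so results that depend on it are given with and without it. The day 14 EAE mouse 3 was the most deeply sequenced mouse (31.82 M reads). In bulk muscle, fewer cells of a type and less RNA per cell cannot be told apart.

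All 9 genes were strongly expressed in the unimmunized mice of day 14. PYGM ranked 35th of all genes with 1850 ± 95.4 RPKM (mean ± SD, n = 5), far above its regulator PHKG1 with 211 ± 13.3 RPKM and UGP2 with 233 ± 29.9 RPKM. The synthase GYS1 had 144 ± 9.46 RPKM and glycogenin 171 ± 13.5 RPKM, so phosphorylase RNA was 12.9 ± 0.746 times synthase RNA within a mouse. PPP1R3C (104 ± 14.8 RPKM) and PHKA1 (89.3 ± 11.1 RPKM) followed. GBE1 (36.6 ± 8.14 RPKM) and PPP1R3A (30.2 ± 9.73 RPKM) were lowest, yet even PPP1R3A was above 91.4% of all genes.

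The sequences before the starts of PYGM and PHKG1, the genes called lower in EAE, and of GBE1 and PPP1R3A, those called higher, are shown to set the promoters of the genes that moved side by side (RefSeq, GRCm38.p6, mouse). Each line runs 5′ to 3′ on the strand of the gene and ends at the last base before its RefSeq start. The line of Phkg1 stops 46 bases earlier, where the span given below for PHKG1 begins. Capitals mark E-boxes (CANNTG on either strand), the motif read by MyoD and other bHLH factors, and MEF2 motifs, named after the muscle transcription factor.
Pygm, chr19:6384158-6384407, + strand: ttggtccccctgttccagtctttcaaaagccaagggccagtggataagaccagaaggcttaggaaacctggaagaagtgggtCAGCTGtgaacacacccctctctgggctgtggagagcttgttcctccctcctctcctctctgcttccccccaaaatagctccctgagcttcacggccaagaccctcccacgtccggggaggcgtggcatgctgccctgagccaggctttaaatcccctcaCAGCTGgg
Phkg1, chr5:129879135-129879338, - strand: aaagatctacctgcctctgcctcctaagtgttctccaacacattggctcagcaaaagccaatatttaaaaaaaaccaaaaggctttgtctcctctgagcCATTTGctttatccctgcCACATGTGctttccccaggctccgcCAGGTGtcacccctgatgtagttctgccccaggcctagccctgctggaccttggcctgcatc
Gbe1, chr16:70313699-70313948, + strand: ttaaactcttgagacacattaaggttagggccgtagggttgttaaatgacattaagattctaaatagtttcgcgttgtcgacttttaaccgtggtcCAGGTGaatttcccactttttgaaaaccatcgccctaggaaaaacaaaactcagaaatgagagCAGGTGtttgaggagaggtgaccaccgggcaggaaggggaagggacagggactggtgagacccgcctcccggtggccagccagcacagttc
Ppp1r3a, chr6:14755275-14755524, - strand: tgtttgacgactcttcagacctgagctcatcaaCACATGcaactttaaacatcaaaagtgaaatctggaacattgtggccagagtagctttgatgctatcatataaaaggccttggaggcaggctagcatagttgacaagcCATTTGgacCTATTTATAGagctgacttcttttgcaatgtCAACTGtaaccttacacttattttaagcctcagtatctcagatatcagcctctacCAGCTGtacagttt
The E-boxes of Pygm were both of the form CAGCTG, 168 and 8 bases before the start. Phkg1 held 5 E-boxes in the 250 bases, of which 2 overlapped, and Gbe1 held 2, with none of either gene of the form CAGCTG. The Phkg1 E-box 37 bases before the start lies in the 46 bases left out of its line. Ppp1r3a held 4 E-boxes, a MEF2 motif 100 bases before the start and the letters TATAAA 149 bases before it, and the same letters on the opposite strand within the MEF2 motif. RefSeq promoters were matched for 9 of 9 genes, and all of them held an E-box, which 66.2% of 32851 promoters of this length hold as well. CAGCTG stood in 6 of the 9 (13.0% of all promoters), in genes that were higher, lower and not called, and a MEF2 motif in 1 of the 9 (1.7% of all promoters). A gene was counted if any of its promoters matched, whereas the shares count promoters. Ugp2 had 2 promoters and held CAGCTG in the second only. In Phka1 it stood 38 bases before the start, inside the gene by the span given below.

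On day 14 the 9 genes moved in both directions in EAE. Compared with unimmunized mice, GBE1 rose 2.96-fold and PPP1R3A 1.74-fold, whereas PHKG1 was 2.38-fold and PYGM 1.55-fold lower, so 2 genes were called higher and 2 lower. Calls needed a change of more than 1.5-fold together with a p below 0.05 in limma after Benjamini-Hochberg adjustment. Of the 8771 genes tested, 14.6% were called higher and 11.8% lower, a background against which 4 called genes of 9 have to be read. The groups did not overlap in 3 of the 9 genes that were higher in EAE (21.2% of the genes tested) and 2 that were lower (11.0%). The median log2 fold change of the 9 genes was 0.28, beside 0.11 over all genes tested. Under median-of-ratios scaling the median of all genes fell from 0.114 to 0.014, and the calls over all genes shifted from 1282 higher and 1036 lower to 948 higher and 1277 lower, while the same 4 glycogen genes were called in the same directions. In the same mice the summed RPKM of 10 fast fibre markers was 53630 to 72700 in EAE, 78670 to 121400 in Ctrl and 71290 to 109200 in OVA, and its part in these differences was not tested.

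**Figure D1:**
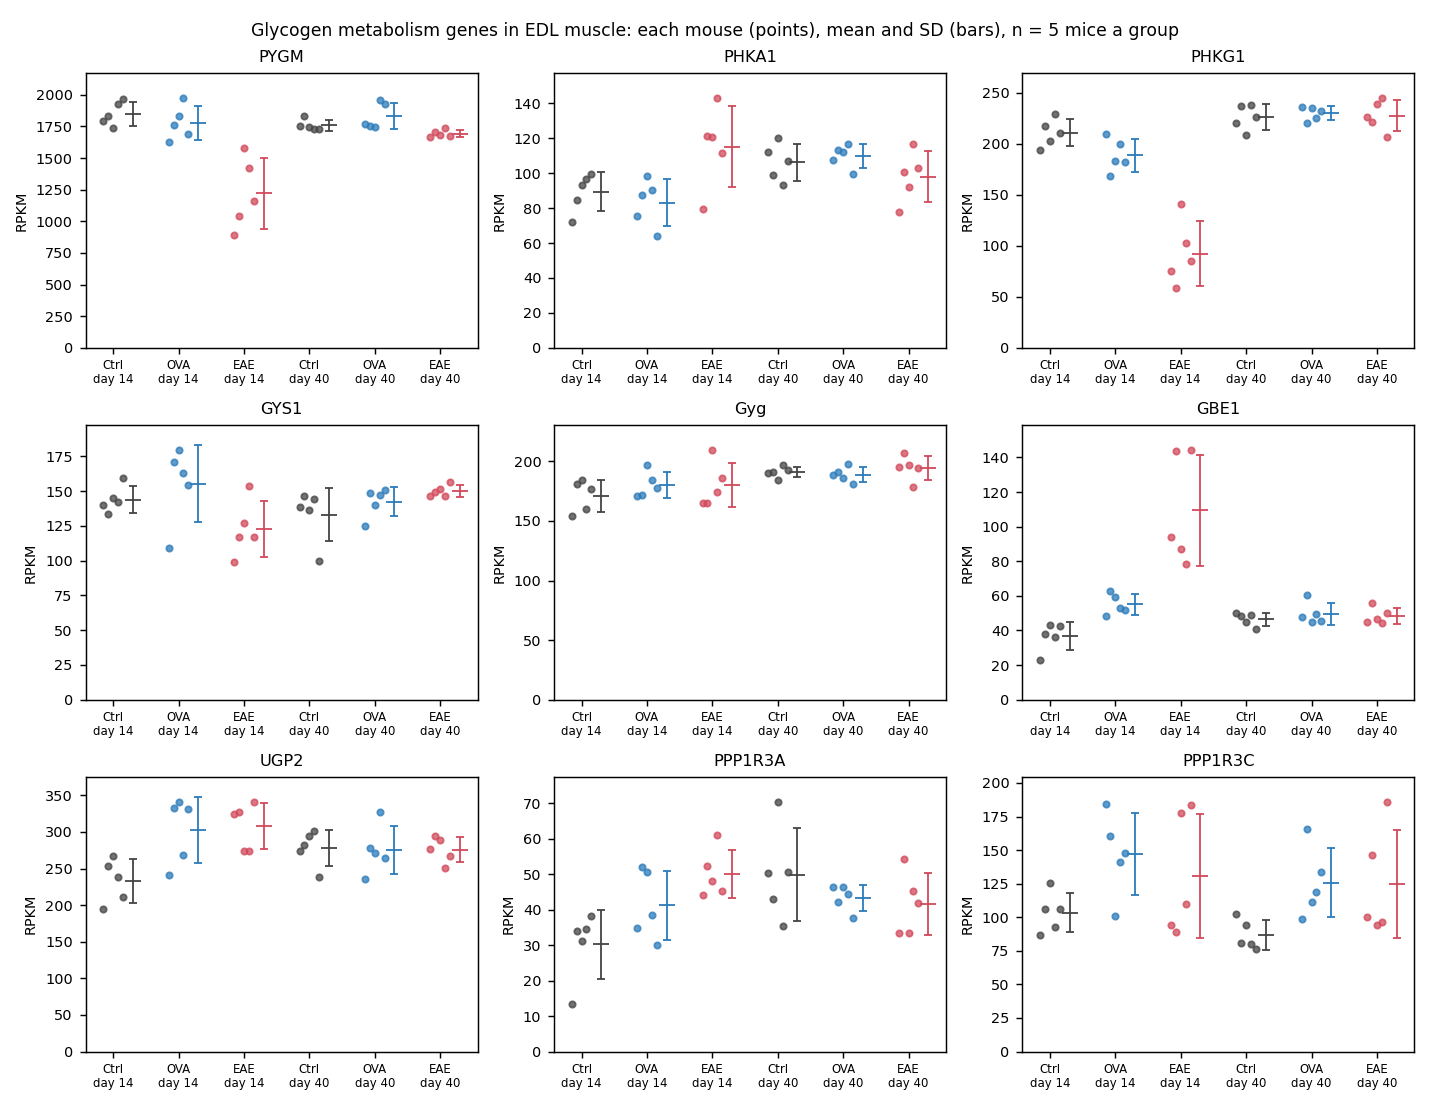
RPKM of the 9 genes (y axes, linear from 0) in the 6 groups (x axes), with 1 point per mouse and the mean with SD of 5 mice beside the points. In PHKG1 the 5 EAE-induced mice of day 14 lie at 58.3 to 141 RPKM and all other mice at 169 to 245 RPKM, and in GBE1 the same 5 mice lie at 78.1 to 144 RPKM, above all other mice.

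Of the genes for breakdown, PYGM (chromosome 19, 6384408 to 6398464, GRCm38.p6) had 1790.5, 1829, 1737, 1929 and 1965 RPKM in the unimmunized mice of day 14. The EAE-induced mice had 895, 1043, 1583, 1418.5 and 1161 RPKM. The OVA-immunized mice had 1628, 1763, 1833.5, 1973 and 1688 RPKM. All 5 EAE-induced mice lay below all 10 control mice of that day, and the EAE group spread more widely (SD 279 RPKM against 95.4 in Ctrl and 134 in OVA). The log2 fold change was -0.63 (SE 0.14, adjusted p = 0.00187, limma) against Ctrl, just past the 1.5-fold threshold, and -0.57 (SE 0.14, adjusted p = 0.00466, limma) against OVA, just short of it. The call against Ctrl was lost when EAE mouse 1 (-0.53) or EAE mouse 2 (-0.58) was left out, and under quantile normalization (-0.44). The difference from OVA passed the fold threshold when OVA mouse 1 (-0.60) or 5 (-0.59) or EAE mouse 3 (-0.67) or 4 (-0.63) was left out.

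PHKG1, the catalytic subunit that phosphorylates PYGM (chromosome 5, 129863431 to 129879134), fell furthest. It had 194, 217, 203, 229 and 211 RPKM in Ctrl and 209.7, 169, 183, 199.9 and 182 RPKM in OVA. The EAE-induced mice had 74.8, 58.3, 141, 103 and 84.8 RPKM, below every control mouse. Its log2 fold change was -1.25 (SE 0.17, adjusted p = 4.99e-05) against Ctrl and -1.09 (SE 0.17, adjusted p = 0.000182) against OVA, and leaving out any 1 mouse gave -1.42 to -1.10 and -1.26 to -0.94. EAE mouse 3, whose PYGM was the highest of its group, had the highest PHKG1 as well.

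PHKA1, the regulatory alpha subunit (chromosome X, 102513975 to 102644301), had a higher mean in EAE than in both controls. Its level was 72.2, 84.8, 93.2, 96.9 and 99.7 RPKM in Ctrl, 75.7, 87.4, 98.3, 90.4 and 64.1 RPKM in OVA and 79.6, 121, 121, 143 and 112 RPKM in EAE. EAE mouse 1 lay among the controls and the other 4 above them. The log2 fold change was 0.35 (SE 0.15, adjusted p = 0.0706) against Ctrl and 0.46 (SE 0.15, adjusted p = 0.0270, below the fold threshold) against OVA, and without EAE mouse 1 the difference from OVA passed it (0.59).

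Because the kinase subunits went different ways, their ratio was computed within each mouse. PHKA1 over PHKG1 was 0.853 to 2.08 in the EAE-induced mice of day 14 (1.34 ± 0.464, SD, n = 5) and 0.344 to 0.576 in the 25 mice of the other groups, so the ranges did not overlap. A ratio within a mouse does not depend on the scaling of its library, but it shows unequal change and not which subunit moved. PHKG1 alone already set the EAE-induced mice of day 14 below all other mice, so the gap in the ratio is not a separate result.

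Among the genes for synthesis, GBE1, the branching enzyme (chromosome 16, 70313949 to 70569720), showed the largest rise of the 9. It had 23.0, 37.9, 43.1, 36.1 and 42.7 RPKM in Ctrl and 93.8, 144, 86.9, 78.1 and 144 RPKM in EAE. The OVA-immunized mice stood between them without overlap on either side, with 48.5, 62.9, 59.5, 53.0 and 51.7 RPKM. The log2 fold change was 1.56 (SE 0.19, adjusted p = 1.88e-05) against Ctrl and 0.95 (SE 0.19, adjusted p = 0.00139) against OVA in limma, and the lowest value with any 1 mouse left out was 1.41 and 0.83.

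UGP2, which makes the glucose donor (chromosome 11, 21321126 to 21371267), had higher means in both immunized groups. Its level was 194, 253, 267, 239 and 211 RPKM in Ctrl, 241, 333, 341, 268 and 331 RPKM in OVA and 324, 328, 274, 274 and 341 RPKM in EAE. EAE lay above Ctrl without overlap and overlapped OVA, whose highest mouse (340.8 RPKM) was just below the highest EAE mouse (340.9 RPKM). The log2 fold change was 0.41 (SE 0.13, adjusted p = 0.0156) against Ctrl, below the fold threshold, and 0.03 (95% interval -0.24 to 0.30) against OVA.

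GYS1 and glycogenin were not called. GYS1 (chromosome 7, 45434839 to 45456617) had 133.6 to 159 RPKM in Ctrl, 109 to 179.5 RPKM in OVA and 98.7 to 153 RPKM in EAE, with log2 fold changes of -0.24 (adjusted p = 0.155) against Ctrl and -0.33 (adjusted p = 0.0666) against OVA, and the groups overlapped. Gyg (chromosome 3, 20122083 to 20155117) had 154 to 184 RPKM in Ctrl, 171 to 197 RPKM in OVA and 165 to 209 RPKM in EAE, and its 95% intervals of -0.13 to 0.27 against Ctrl and -0.21 to 0.20 against OVA leave room for changes of less than 1.5-fold only. The sign of the Gyg difference flipped with the scaling in both comparisons.

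The phosphatase-targeting genes differed from each other. PPP1R3A, the main glycogen-targeting subunit of striated muscle (chromosome 6, 14713822 to 14755274), had 13.4, 34.0, 31.1, 34.6 and 38.1 RPKM in Ctrl, 34.8, 52.0, 50.7, 38.4 and 30.1 RPKM in OVA and 44.1, 52.2, 48.0, 61.0 and 45.2 RPKM in EAE. EAE lay above Ctrl without overlap, and within the range of OVA apart from the highest EAE mice, 2 of which exceeded every OVA mouse. Its log2 fold change was 0.80 (SE 0.24, adjusted p = 0.0119) against Ctrl and 0.30 (SE 0.24, adjusted p = 0.328) against OVA. The call depended on the low Ctrl mouse 1, since without that mouse the difference was 0.53 (adjusted p = 0.0122), below the fold threshold.

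PPP1R3C, which also brings phosphatase to glycogen and is found in many tissues (chromosome 19, 36731731 to 36736604), was split among the EAE-induced mice of day 14. It had 94.4, 88.7, 178, 109.97 and 184 RPKM there, 87.1 to 125 RPKM in Ctrl and 101 to 184 RPKM in OVA. EAE mice 3 and 5 were high, and the other 3 mice lay within the range of Ctrl. The log2 fold change was 0.28 (SE 0.21, adjusted p = 0.281) against Ctrl and -0.21 (SE 0.21, adjusted p = 0.451) against OVA.

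Against OVA-immunized mice, which share the adjuvant, 1 of the 9 genes was called higher (GBE1) and 1 lower (PHKG1), where 11.0% and 9.28% of 8674 tested genes were called. Groups did not overlap in 1 gene that was higher (GBE1, beside 18.0% of the genes tested) and 2 that were lower (PYGM and PHKG1, beside 8.20%). Both day 14 comparisons use the same 5 EAE-induced mice, so their values stand side by side and do not back each other. The median over the 9 genes was -0.01 against OVA, with 0.11 over all genes tested.

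OVA-immunized and unimmunized mice of day 14 were compared next, to ask what antigen with adjuvant alone went along with. None of the 9 genes was called by limma, where 0.0944% of 8471 genes were called higher and 0.0472% lower, while 3 had an unadjusted p below 0.05. GBE1 was higher in OVA by 0.62 (SE 0.19, unadjusted p = 0.00570, adjusted p = 0.318) with groups that did not overlap, as in 1.09% of the genes tested. Without the low Ctrl mouse 1 the GBE1 difference was 0.46, below the fold threshold. The exact permutation test (both tails) gave p = 0.00794 for this gene alone, the smallest p that 5 against 5 mice allow. UGP2 differed by 0.38 (SE 0.13, adjusted p = 0.365) and PPP1R3C by 0.49 (SE 0.21, adjusted p = 0.465). PYGM (-0.06, 95% interval -0.35 to 0.23) and PHKG1 (-0.16, 95% interval -0.53 to 0.21), the genes called lower in EAE, had intervals around 0 here.

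**Figure D2:**
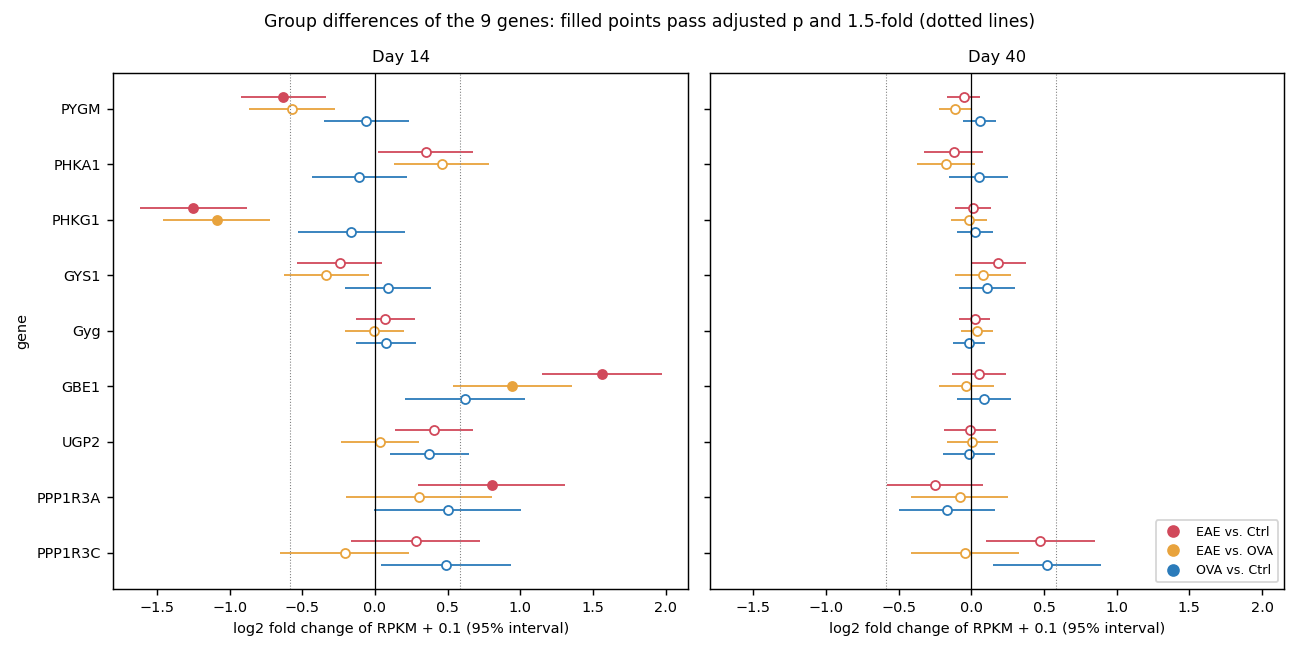
Log2 fold change of RPKM + 0.1 with its 95% interval (x axis) for the 9 genes (y axis), for EAE against each control and for OVA against Ctrl, on day 14 (left) and day 40 (right). Filled points passed the adjusted p and the fold threshold (dotted lines), which only GBE1, PHKG1, PYGM and PPP1R3A did, on day 14.

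The balance of phosphorylase and branching enzyme RNA combined the fall of one and the rise of the other. PYGM over GBE1 was 7.26 to 18.2 within the EAE-induced mice of day 14 (12.2 ± 5.48, SD, n = 5). It was 40.3 to 77.7 in Ctrl and 28.0 to 37.2 in OVA on that day, and 29.1 to 42.5 in the 15 mice of day 40. All 5 EAE-induced mice of day 14 were thus below every other mouse. That follows from their PYGM lying below, and their GBE1 above, all other mice, so the ratio is not a separate result. PYGM over GYS1 moved less, with 9.92 ± 1.47 in EAE, 12.9 ± 0.746 in Ctrl and 11.7 ± 1.97 in OVA.

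**Figure D3:**
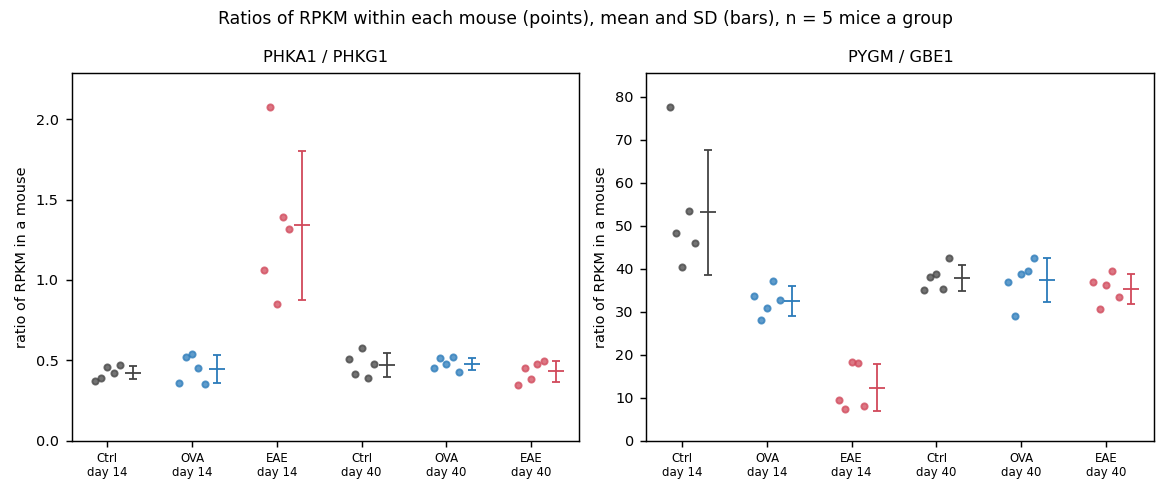
Ratio of RPKM within each mouse (y axes, linear from 0) for PHKA1 over PHKG1 (left) and PYGM over GBE1 (right) in the 6 groups (x axes), with 1 point per mouse and the mean with SD of 5 mice. The day 14 EAE-induced mice lie at 0.853 to 2.08 on the left, above all other mice, and at 7.26 to 18.2 on the right, below all other mice.

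On day 40, in remission, none of the 9 genes was called by limma. Over all genes 0.0690% were called higher and 0.391% lower in EAE vs. Ctrl, 0.0349% and 0.174% in EAE vs. OVA, and 0% each way in OVA vs. Ctrl. The exact permutation test also called 0 of the 9 in each, and the number with an unadjusted limma p below 0.05 was 1, 0 and 1 in that order. PHKG1 stood at 207 to 245 RPKM in all 3 groups (Ctrl 226 ± 12.5, OVA 230 ± 6.81, EAE 228 ± 14.9, SD, n = 5 each). GBE1 ranged from 40.6 to 60.3 RPKM over the 15 mice, with 46.6 ± 3.79 RPKM in Ctrl and 48.4 ± 4.83 RPKM in EAE. The 95% interval of EAE vs. Ctrl was -0.12 to 0.13 for PHKG1 and -0.13 to 0.24 for GBE1, which leaves out a 1.5-fold change in either gene.

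PYGM in the EAE-induced mice of day 40 was the most even of all group and gene pairs, with 1664.5, 1709, 1685, 1734 and 1675 RPKM. Those 5 mice lay below the OVA-immunized mice (1748 to 1956 RPKM) without overlap, as did 4.90% of the genes tested, by -0.11 (SE 0.05, adjusted p = 0.293), and overlapped the unimmunized mice (1728 to 1834 RPKM). GYS1 of EAE (146.6 to 157 RPKM) lay above that of Ctrl (99.7 to 146 RPKM), as did 0.713% of the genes tested, by 0.19 (SE 0.09, adjusted p = 0.186). One Ctrl mouse with 99.7 RPKM stood apart there, and the other 4 had 136 RPKM or more. PPP1R3C had the largest difference of day 40, with 76.5 to 102 RPKM in Ctrl, 98.7 to 166 RPKM in OVA and 94.3 to 186 RPKM in EAE, and was higher by 0.52 in OVA (SE 0.18, adjusted p = 0.999) and by 0.48 in EAE (SE 0.18, adjusted p = 0.110), neither of which passed.

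The change of the EAE effect from day 14 to day 40 was tested as an interaction over all 30 mice, which are different animals on the 2 days. Against Ctrl, the effect on PHKG1 moved up by 1.26 (SE 0.19, adjusted p = 7.40e-06), and the effect on GBE1 moved down by 1.51 on the log2 scale (interaction -1.51, SE 0.22, adjusted p = 6.02e-06), as did that on PPP1R3A (-1.05, SE 0.30, adjusted p = 0.00559). Between the days PPP1R3A changed more in Ctrl (0.77, and 0.50 without Ctrl day 14 mouse 1) than in EAE (-0.28, adjusted p = 0.278, limma). Leaving out any 1 mouse gave a PPP1R3A interaction of -1.17 to -0.78. Thus 1 of the 9 genes was called up and 2 down, beside 11.7% and 20.9% of 9013 genes. PYGM moved up by 0.58 (SE 0.14, adjusted p = 0.00209), just under the fold threshold, and PHKA1, GYS1 and UGP2 also had an adjusted p below 0.05 without reaching the threshold (-0.47, 0.43 and -0.42). PYGM passed it without Ctrl mouse 1 or 3, EAE mouse 3 or 4 of day 14, or Ctrl mouse 2 of day 40 (0.59 to 0.68), and PHKA1 did without EAE mouse 1 of day 14 (-0.60).

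Against OVA the called interactions were PHKG1 (1.07, SE 0.19, adjusted p = 7.20e-05), GBE1 (-0.98, SE 0.22, adjusted p = 0.00111) and PHKA1 (-0.63, SE 0.18, adjusted p = 0.00918), beside 8.16% of 8935 genes up and 13.7% down. PHKA1 fell just under the fold threshold with OVA day 14 mouse 5 (-0.54), EAE day 14 mouse 4 (-0.55) or EAE day 40 mouse 1 (-0.55) left out. The OVA vs. Ctrl difference changed between the days in none of the 9 genes by limma (0% called over all genes in each direction, 3 of 9 with an unadjusted p below 0.05).

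Levels were also compared between the days within a treatment. In EAE-induced mice PHKG1 was higher on day 40 than on day 14 by 1.36 (SE 0.13, adjusted p = 3.00e-09) and PYGM by 0.50 (SE 0.10, adjusted p = 0.000196, below the fold threshold, and 0.60 without EAE day 14 mouse 3), both without overlap (10.2% of the genes tested), and GBE1 was lower (-1.13, SE 0.16, adjusted p = 1.08e-06), also without overlap (21.9%). So 1 of the 9 genes was called higher and 1 lower, beside 8.36% and 12.7% of 8709 genes. In unimmunized mice PPP1R3A was called higher on day 40 (0.77, SE 0.21, adjusted p = 0.0113), beside 5.02% of 8788 genes called higher and 4.35% lower, and was not called without Ctrl day 14 mouse 1 (0.50, adjusted p = 0.0515). In OVA-immunized mice none was called (2.25% of 8648 genes higher and 1.71% lower, 2 of 9 with an unadjusted p below 0.05), and PHKA1 differed by 0.41 (SE 0.13, adjusted p = 0.0435, below the fold threshold). PHKA1 and PHKG1 of OVA lay higher on day 40 without overlap, as did 7.02% of the genes tested. Days were sampled in different mice, and what else differed between the days cannot be told apart from time.

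A further 43 genes of the pathway were followed, and 33 of them passed the filter on day 14. In EAE vs. Ctrl 4 were called higher and 2 lower, and in EAE vs. OVA 3 higher and 2 lower. That is 12.1% and 6.06% of the 33 against Ctrl and 9.09% and 6.06% against OVA, none above the shares of all genes tested (14.6% and 11.8%, 11.0% and 9.28%). By list, the calls against Ctrl were 1 higher and 1 lower of 7 other breakdown genes tested, 1 higher of 5 other synthesis and phosphatase genes, 2 higher and 1 lower of 17 kinases and regulators, and 0 of 4 genes of glucose entry. The 33 genes' median log2 fold changes of 0.20 and 0.19 lay near the 0.11 of all genes tested. OVA vs. Ctrl on day 14 and the 3 comparisons of day 40 called 0 of them by limma. The change of the EAE effect from day 14 to day 40 was called up in 4 and down in 6 of 35 against Ctrl. These are 11.4% and 17.1%, beside 11.7% and 20.9% of all genes tested. Against OVA it was called up in 3 and down in 3 (8.57% each), beside 8.16% and 13.7%.

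STBD1, a glycogen-binding protein linked to the delivery of glycogen to lysosomes, had the largest difference of the list. The EAE-induced mice of day 14 had 168, 153, 79.7, 117 and 148 RPKM and the 10 controls of that day 39.8 to 56.3 RPKM, a difference of 1.54 (SE 0.16, adjusted p = 5.02e-06) against Ctrl and 1.43 (SE 0.16, adjusted p = 1.10e-05) against OVA. GAA, the acid glucosidase that breaks down glycogen inside lysosomes, had 74.5, 123, 94.0, 75.2 and 119.6 RPKM in EAE and 36.0 to 49.1 RPKM in the controls (1.02 against Ctrl, SE 0.14, adjusted p = 4.41e-05). EAE mouse 3, the highest of its group in PYGM and PHKG1, was the lowest in STBD1. By day 40 the level of STBD1 in EAE was 37.2 to 48.6 RPKM and that of GAA 36.3 to 39.9 RPKM. On that day STBD1 had 33.7 to 39.3 RPKM in Ctrl and 40.7 to 58.3 RPKM in OVA. GAA had 41.8 to 52.4 RPKM in Ctrl, above every EAE mouse, and 39.4 to 50.4 RPKM in OVA, and neither gene was called. GAA was the only 1 of the 35 other pathway genes tested that was lower in EAE than in Ctrl on day 40 without overlap. The share over all genes is not given for this direction, so no result is read from it.

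Of the other subunits of phosphorylase kinase, the beta subunit PHKB (0.20) and the second gamma subunit PHKG2 (-0.01) had no adjusted p below 0.05 against Ctrl. CALM2, one of the genes for the calmodulin subunit, had 94.4 to 125 RPKM in EAE and 137 to 169 RPKM in Ctrl on day 14 without overlap, a difference of -0.46 (SE 0.13, adjusted p = 0.00938) below the fold threshold, and CALM3 differed by -0.02 (adjusted p = 0.916). The EAE vs. Ctrl effect on CALM2 moved up by day 40 (0.62, SE 0.17, adjusted p = 0.00388), a call lost when any 1 of Ctrl day 14 mouse 2 (0.58), EAE day 14 mouse 2 (0.56), Ctrl day 40 mouse 1 (0.58) or Ctrl day 40 mouse 3 (0.53) was left out and under quantile normalization (0.56). PYGB, the brain phosphorylase, stood at a few RPKM only and was lower (3.37 against 5.37 RPKM, -0.69, SE 0.17, adjusted p = 0.00421). That call was lost without EAE mouse 1 (-0.57) and under an alternative processing (-0.56).

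Upstream of these enzymes, PRKAR2A, a regulatory subunit of protein kinase A, rose from 26.3 to 42.2 RPKM in Ctrl to 58.6 to 86.0 RPKM in EAE (1.00, SE 0.15, adjusted p = 0.000113). PRKAG1, a gamma subunit of AMPK that senses AMP, was lower with 9.89 to 19.3 RPKM in EAE against 20.0 to 36.4 RPKM in Ctrl (-0.90, SE 0.20, adjusted p = 0.00163). PPP1CB, a catalytic subunit of the phosphatase that PPP1R3A and PPP1R3C target, was called against Ctrl (0.90, SE 0.26, adjusted p = 0.0109) and not without Ctrl mouse 1 (0.55), which had 26.9 RPKM while the other 4 had 85.5 to 93.5 RPKM. PRKAG2, another gamma subunit of AMPK, was called against OVA (-0.62, SE 0.12, adjusted p = 0.00121) and fell short of the fold threshold against Ctrl (-0.52, adjusted p = 0.00332). The call against OVA was lost without OVA mouse 5 (-0.54), EAE mouse 2 (-0.56) or EAE mouse 4 (-0.58). It was also lost under an alternative processing (-0.52), and OVA and Ctrl differed by 0.10 (adjusted p = 0.807).

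None of the 4 genes of glucose entry was called in the comparisons within a day. SLC2A4, the insulin-responsive transporter GLUT4, had 136, 103, 171, 165 and 125 RPKM in EAE on day 14 and 175 to 217 RPKM in the 10 controls, a difference of -0.45 (SE 0.13, adjusted p = 0.00856) against Ctrl and -0.58 (SE 0.13, adjusted p = 0.00203) against OVA, both below the fold threshold. The change of its EAE effect from day 14 to day 40 was called against Ctrl (0.64, SE 0.14, adjusted p = 0.000586) and against OVA (0.72, SE 0.14, adjusted p = 0.000255), and the call against Ctrl was lost without EAE day 14 mouse 2 (0.54) and under quantile normalization (0.57). Muscle phosphoglucomutase, the step between glucose 1-phosphate and glycolysis (listed as PGM2 in the table and Pgm1 in RefSeq), had 309 RPKM in EAE and 450 RPKM in Ctrl on average (-0.55, SE 0.13, adjusted p = 0.00253), also below the fold threshold. The change of its EAE effect between the days was called against Ctrl. Its values were 0.60 to 0.74 with any 1 mouse left out and 0.45 to 0.81 over the other settings, so it fell below the threshold in some. Hexokinase gene HK2 differed by 0.30 (SE 0.15, adjusted p = 0.104).

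**Figure D4:**
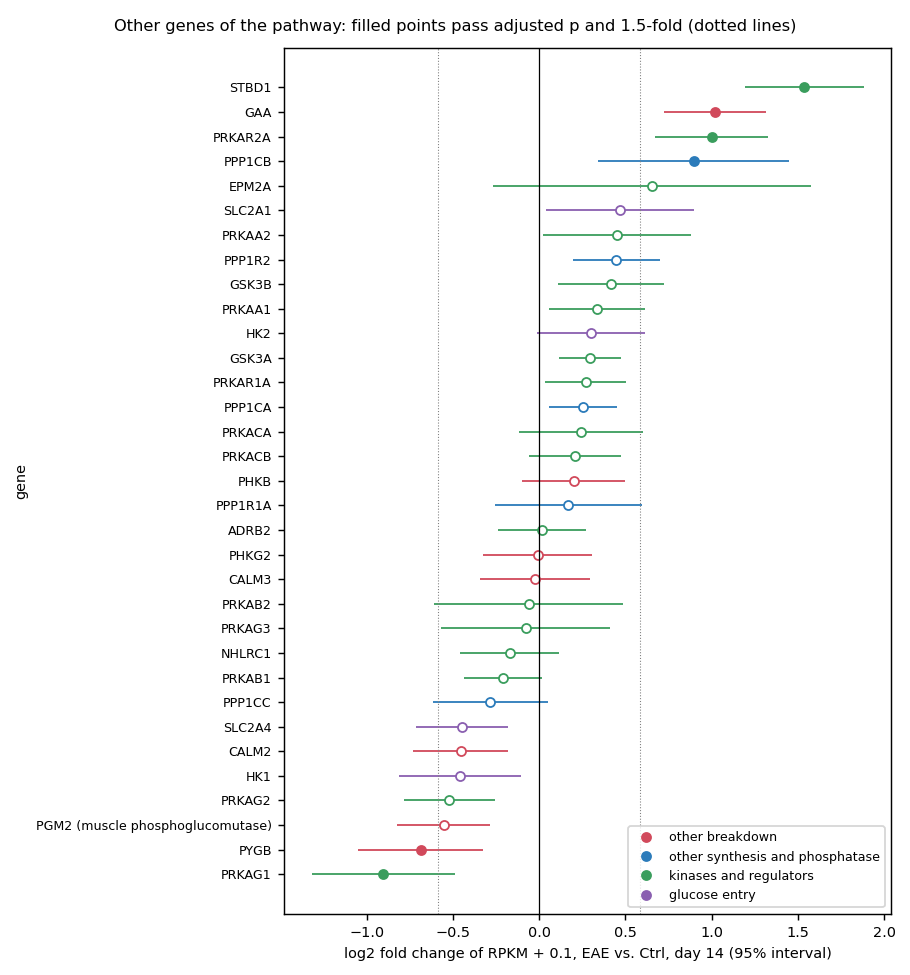
Log2 fold change of RPKM + 0.1 in EAE vs. Ctrl on day 14 with its 95% interval (x axis) for the 33 other pathway genes that passed the filter (y axis), coloured by list. Filled points passed the adjusted p and the fold threshold (dotted lines): 4 genes higher, led by STBD1 (1.54), and 2 lower, PRKAG1 (-0.90) and PYGB (-0.69).

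**Figure D5:**
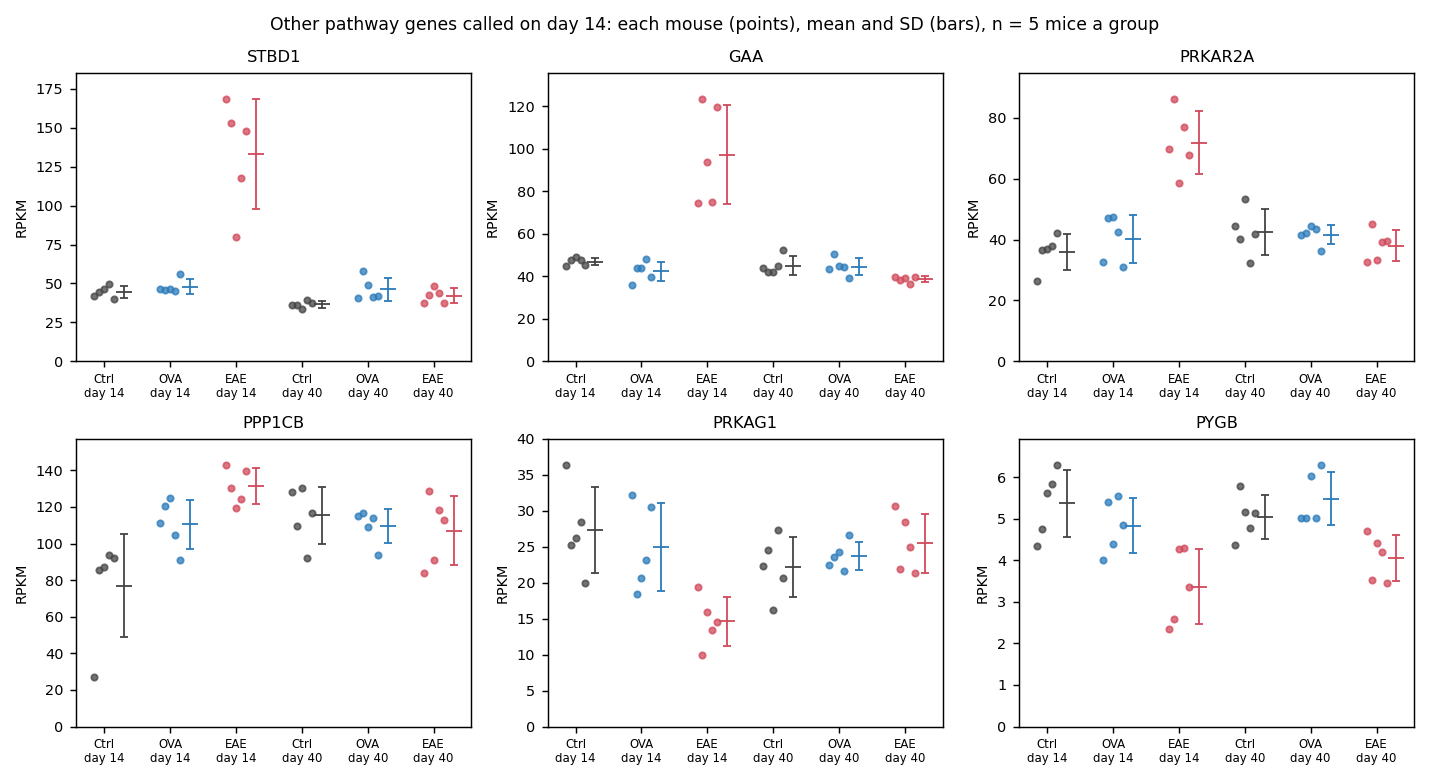
RPKM (y axes, linear from 0) of 6 other pathway genes called on day 14 in the 6 groups (x axes), with 1 point per mouse and the mean with SD of 5 mice. STBD1 in the EAE-induced mice of day 14 lies at 79.7 to 168 RPKM, above all other mice, and the low point of PPP1CB in Ctrl on day 14 is mouse 1 with 26.9 RPKM.

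For each gene called in EAE vs. Ctrl on day 14, the 3 genes with the most similar profile were found, by the smallest root mean square difference of centred log2(RPKM + 0.1) over the 30 mice among 9049 genes. The nearest to PYGM were SUN2 (0.088), HRC (0.110) and FLOT2 (0.121), and those nearest to PHKG1 were RPL3L (0.164), KLHL31 (0.168) and EEPD1 (0.176). GBE1 was nearest to KREMEN1 (0.197), DDX21 (0.207) and Ctps (0.213), and PPP1R3A to DMXL1 (0.127), SP3 (0.128) and YTHDF3 (0.130). None of these 12 was among the pathway genes listed. The median difference over all genes compared was 0.378 for PYGM, 0.599 for PHKG1, 0.560 for GBE1 and 0.467 for PPP1R3A, and all 30 profiles share the group structure.

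Markers of fibre type and of other cells moved on day 14 as well, beside 14.6% of all genes tested called higher and 11.8% lower in EAE vs. Ctrl. Of 10 fast fibre markers, 3 were called lower in EAE vs. Ctrl (TNNC2, PVALB and CASQ1) and none higher. MYH4, the myosin of the fastest fibres, had 5820 ± 1578 RPKM in EAE and 5706 ± 1015 RPKM in Ctrl (SD, n = 5). Of 10 slow fibre markers 3 were called lower (MYL2, MYL3 and TNNC1), with sums of 1246 to 2050 in EAE and 1899 to 3097 in Ctrl. Of 11 neutrophil markers listed, 5 of 5 tested were called higher in EAE and in OVA vs. Ctrl alike. Only 2 of the 11 passed the filter between the Ctrl groups of the 2 days. Most of the 5 thus entered through immunized mice, so their count lends no support. Sums of the 11 were 219 to 405 in EAE, 69.6 to 238 in OVA and 4.23 to 11.2 in Ctrl. Against OVA, however, 3 of the 5 were lower in EAE and 2 higher (1 called), with a median log2 fold change of -0.86. MPO and ELANE were at a mean of at most 0.056 RPKM in the day 14 groups.

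The next counts are of EAE vs. Ctrl on day 14, where 11.8% of all genes tested were called lower and 14.6% higher. Macrophage markers were called lower in 5 of 8 (sums 136 to 308 in EAE and 287.5 to 435 in Ctrl), fibroblast markers in 5 of 6 (314 to 513 and 881 to 2017), erythrocyte markers in 4 of 4 (26.5 to 188.5 and 189 to 684), adipocyte markers in 1 of 5 (306 to 485 and 457 to 686) and endothelial markers in 2 of 5 (58.9 to 91.8 and 71.5 to 104), and none of 5 Schwann cell markers was called (73.7 to 112 and 106 to 115). Of the skeletal muscle markers, 2 of 8 were called higher, and against OVA 2 were called higher and 1 lower. The part of these shifts in the differences of the glycogen genes was not tested.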

How the data were processed

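RNA-Seq of EDL muscle covered 30 mice in 6 groups of 5. The labels number the samples of a group as replicates and name no animals. Each was taken as 1 mouse, and the p-values measure the spread between these samples. The authors prepared directional poly(A) libraries, aligned paired-end reads to mm10 with Subread, used featureCounts with RefSeq transcripts, and scaled the counts to RPKM. The values deposited by the authors are log2(RPKM + 1), with 0.0001 in place of no read (25.8% of values). This scale was read from the values: on it a median of 96.6% of low values a mouse fell within 0.1 of whole reads, against 60.3% if they were plain RPKM. They were converted back to RPKM.

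Depth was estimated from 471 one-exon genes whose GENCODE and RefSeq lengths differed by at most 5 bases, with a median of 21.76 M reads a mouse. The 60 pairs of mice within groups differed by 4.32 to 44.46 times the sampling noise, so all were kept as separate samples, and counting error is small for genes at these levels.

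limma 3.58.1 in R 4.3.3 (lmFit, then eBayes allowing a trend of variance with mean) was fitted to log2(RPKM + 0.1). Comparisons within a day used its 15 mice, and interactions and differences between days used all 30. Fold changes are on this scale and understate low genes. A gene was tested if either compared group averaged over 3 RPKM, and p-values were adjusted by Benjamini-Hochberg over all tested genes. Calls needed a change of more than 1.5-fold and an adjusted p below 0.05. EdgeR, which the authors used, needs counts and was not used here. The model was tested on simulated data. Of the pathway lists, 2 genes are not reported here. The 9 genes and the gene lists were chosen with earlier results of these data known. Named are the 9 genes, genes of the lists, and for each gene of the 9 called in EAE vs. Ctrl on day 14 the 3 nearest profiles. Alternatives were pseudocounts of 1 and 0.01, no filter, median-of-ratios and quantile scaling, no fold threshold, no trend, a replicate block, leaving out each mouse, other sets of mice in the model, and an exact permutation test with both tails. Coordinates of the genes and promoters are from RefSeq, GRCm38.p6 (mm10), and exon lengths from GENCODE M21.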

Additional observations from a re-analysis of the deposited data

Results flagged for a closer look

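Among the 54 sets of 5 mice (9 genes in 6 groups), 3 had 1 mouse that stood apart by Dixon's test, with a gap to the nearest other mouse of over 0.71 of the range, and chance alone flags about 1 in 20. They were GYS1 in the Ctrl mouse of day 40 with 99.7 RPKM (gap 0.788 of the range), PPP1R3A in the Ctrl mouse 1 of day 14 with 13.4 RPKM (0.718) and PYGM in the Ctrl mouse of day 40 with 1834 RPKM (0.757). Ctrl mouse 1 of day 14 is also the mouse on which the PPP1R3A call depends.

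The EAE effect differed between the days, by the limma interaction, in 3 of the 9 genes against Ctrl: PHKG1 (1.26, adjusted p = 7.40e-06), GBE1 (-1.51, adjusted p = 6.02e-06) and PPP1R3A (-1.05, adjusted p = 0.00559). Against OVA it differed in PHKG1 (1.07, adjusted p = 7.20e-05), GBE1 (-0.98, adjusted p = 0.00111) and PHKA1 (-0.63, adjusted p = 0.00918). Both sets use the same EAE-induced mice. The level of PPP1R3A changed more between the days in Ctrl (0.77) than in EAE (-0.28).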

How the results depend on the processing

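GBE1 and PHKG1 kept their direction and their call in EAE vs. Ctrl and EAE vs. OVA on day 14, in both EAE interactions and between the days in EAE, under every alternative. With any 1 mouse left out, the number of the 9 genes called higher ranged from 1 to 2 (EAE vs. Ctrl and EAE vs. OVA, day 14), 1 to 2 (EAE vs. Ctrl interaction and EAE day 40 vs. day 14) and 0 to 1 (Ctrl day 40 vs. day 14), and the number called lower from 1 to 2 (EAE vs. Ctrl and EAE vs. OVA, day 14, and EAE vs. OVA interaction). Under quantile normalization 1 gene was called lower in EAE vs. Ctrl on day 14 and 1 in the EAE vs. OVA interaction. Median-of-ratios scaling gave 2 called lower in EAE vs. OVA on day 14, 2 called higher in each EAE interaction and in EAE day 40 vs. day 14, and 1 called lower in the EAE vs. OVA interaction. In the EAE vs. Ctrl interaction PHKA1 also passed the fold threshold without EAE mouse 1 of day 14 (-0.60). Without a fold threshold UGP2 was called higher as well in EAE vs. Ctrl on day 14 (adjusted p = 0.0156, limma). Then 2 were called higher and 2 lower in EAE vs. OVA on day 14, 3 higher and 4 lower in the EAE vs. Ctrl interaction, 2 higher in the EAE vs. OVA interaction, 3 higher in EAE day 40 vs. day 14 and 1 higher in OVA day 40 vs. day 14. The exact permutation test, unadjusted, called 1 higher in OVA vs. Ctrl on day 14. The genes that crossed the threshold were PYGM, PHKA1, PPP1R3A, UGP2, GYS1 and, by permutation alone, GBE1, and the cause was not tested.

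The reversed differences were all near 0: Gyg against Ctrl under median-of-ratios scaling (-0.031), Gyg against OVA under quantile normalization (0.006) and with 1 mouse left out (-0.062 to 0.027), and UGP2 against OVA under median-of-ratios scaling (-0.069) and with 1 mouse left out (-0.046 to 0.078). Same-numbered mice deviated together (r above 0.1) in 7 of 15 pairs on day 14 and 1 of 15 on day 40. Differently numbered mice did so in 24 of 60 and 21 of 60 pairs. On day 14 the mice numbered 1 deviated together (r = 0.612 for Ctrl and OVA, 0.506 for Ctrl and EAE, 0.688 for OVA and EAE). Whether the numbers pair the mice cannot be told from these shares. With the replicate block 2 genes were still called higher and 2 lower in EAE vs. Ctrl on day 14, and the block changed no call among the 9. Over all genes, no fold threshold gave 2530 higher and 1665 lower in EAE vs. Ctrl and 2064 and 1326 in EAE vs. OVA on day 14, and no filter gave 1966 and 1254 lower (1036 and 805 in the fit reported). Genes called lower in the EAE interactions numbered 1250 and 768 under median-of-ratios scaling and 1218 and 737 under quantile normalization (1888 and 1222 as reported). Those called lower in EAE vs. Ctrl on day 40 (34) ranged from 0 with all 30 mice in 1 model to 204 without a fold threshold, and those called higher in Ctrl day 40 vs. day 14 (441) fell to 103 without Ctrl day 14 mouse 1. The depth limits none of the 9 genes, all far above 3 RPKM.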
